A study of Rattus norvegicus with 4 samples.

Results

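The genes described here are 10 of the 18645 named genes on the arrays: Diras1 and Diras2, Rasd1 and Rasd2, the RGK genes Gem, Rem1, Rem2 and Rrad, and the genes Rhob and Rnd3. All encode small GTPases of the Ras superfamily, and they were chosen by family with earlier results of these arrays in view, above all the high forskolin difference of Diras2. The forskolin differences are therefore given as a description, with no test. INS-1 cells, an insulin-secreting tumour line from NEDH rats, received 10 µM forskolin in DMSO, or DMSO alone as vehicle, for 2 h or 16 h. Forskolin activates adenylyl cyclase and so raises cAMP. The 4 groups have 1 array each (Affymetrix rat gene 1.0 ST), so no value has a replicate and no p-value is given. Signals are log2 values after RMA, which normalizes the arrays to each other, and differences are forskolin minus vehicle at the same time.

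Small GTPases cycle between a GTP-bound, active form and a GDP-bound, inactive form. The RGK proteins (Rad, encoded by Rrad, with Gem, Rem1 and Rem2) bind the beta subunits of voltage-gated calcium channels and inhibit these channels, and in insulin-secreting cells overexpressed Gem or Rem2 is known to lower secretion. The Diras proteins are Ras relatives found mainly in the brain. Rasd1, also known as Dexras1, was found as a dexamethasone-induced gene and acts on heterotrimeric G protein signalling, and Rasd2, or Rhes, is best known from the striatum. RhoB is a short-lived small GTPase of endosomes, and Rnd3 binds GTP constitutively and opposes RhoA and its kinase ROCK1.

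The arrays were similar as a whole, with Pearson correlations of 0.986 to 0.993 across probe sets between pairs of arrays. A gene was compared where at least 1 array gave a signal of 4.85 or more, which left 9323 genes. Of the 10 small GTPase genes, 8 reached it, each on a vehicle array too, and Rem1 and Rrad did not. Negative control probe sets had a median signal of 3.22 to 3.39 and the 95th percentile at 6.42 to 6.65, and 26.8% of them would pass the filter, so signals below about that percentile are close to background. Of 9 beta-cell markers measured, 7 were above it on all arrays, with Ins1 at 13.23 to 13.32 and Iapp at 11.24 to 11.92. Some of these markers differed with forskolin at 2 h and 16 h: Mafa by 1.31 and -0.52, Neurod1 by -1.16 and -1.58, and Nkx6-1 by -1.59 and -0.83. Nkx6-1, with signals of 3.84 to 5.43, was below the 95th percentile of the controls on every array. The median over the 9 was -0.02 at 2 h and -0.34 at 16 h. Above 0 were 4 and 1 of the 9, beside 3401 and 4920 of the 9323 compared genes. The part of these markers in the results was not tested. Markers of leukocytes (5 measured), of exocrine and duct tissue (6) and of fibroblasts with endothelium (6) lay below the 95th percentile of the controls on all 4 arrays. Glucagon, a hormone of alpha cells, had a high signal in this line, from 11.76 with vehicle at 2 h to 12.56 with forskolin at 16 h. A list of 8 cAMP response genes, such as Crem and Sik1, was chosen with earlier results of these arrays known. At least 2-fold higher were 8 of 8 at 2 h and 5 of 8 at 16 h, beside 2.09% and 2.33% of all compared genes. Because of that choice, these counts are a description and not an independent check of the treatment.

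With forskolin at 2 h, Diras2, Gem, Rasd1 and Rem2 were at least 2-fold above vehicle and Rnd3 was at least 2-fold below it. That makes 4 of 10 higher and 1 of 10 lower, while among all compared genes 2.09% passed the 2-fold line upwards and 1.41% downwards. Since the choice of genes used this comparison, nothing is read from the contrast of these shares. The split of 195 genes above and 131 below over all compared genes became 242 and 81 after cyclic loess, an alternative scaling, and 223 and 88 after a further quantile normalization. At 16 h Diras2 alone was at least 2-fold higher and 0 of 10 were at least 2-fold lower, beside 2.33% and 2.02% of all compared genes. The median difference of the 10 genes was 0.21 log2 units at 2 h and 0.36 at 16 h, against -0.10 and 0.02 over the compared genes. Without Rem1 and Rrad, which were below the filter, it was 0.62 and 0.40 over the other 8. In whole-culture RNA, more transcript per cell and a larger share of cells with the transcript cannot be told apart.

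**Figure D1:**
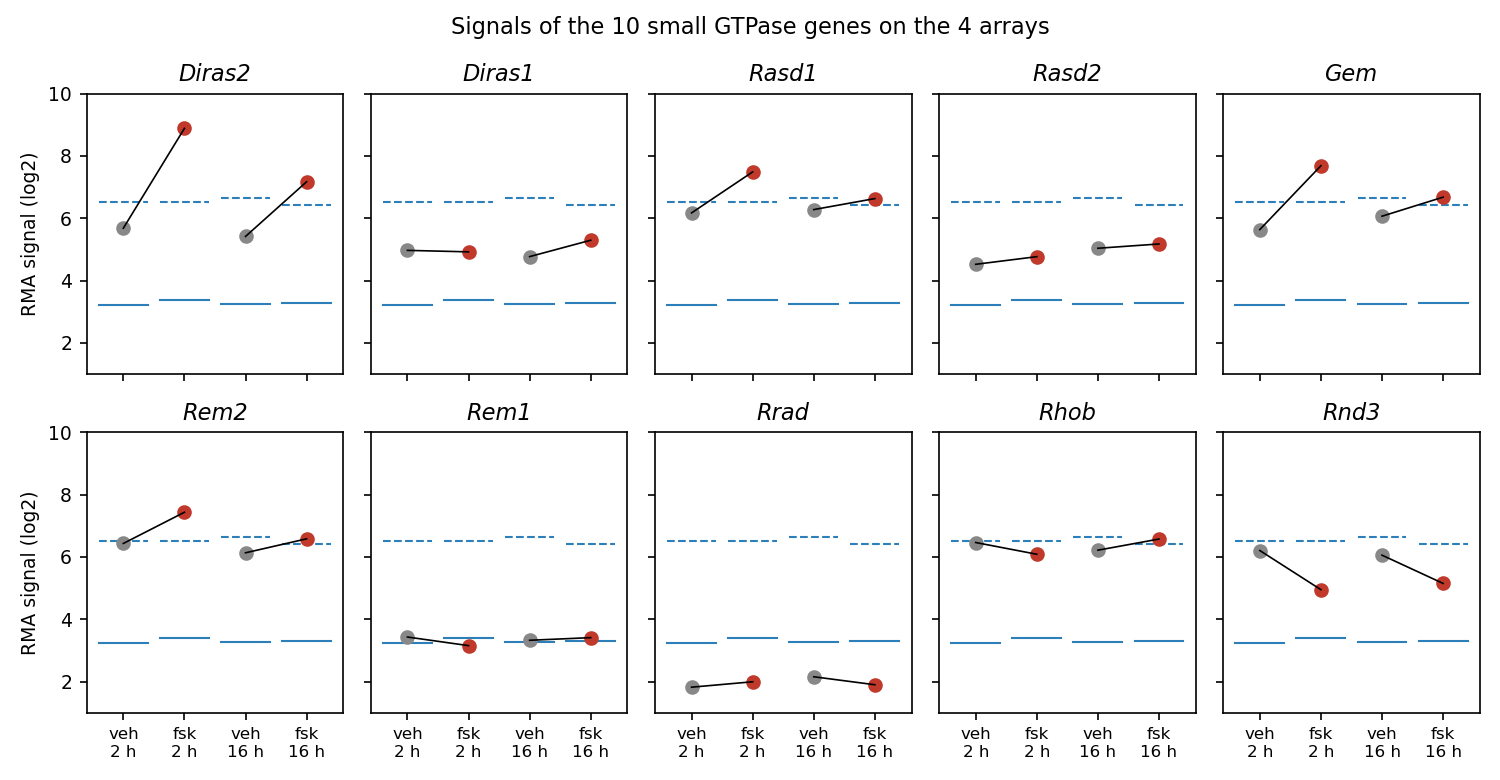
RMA log2 signal (y axis) of each of the 10 genes on the 4 arrays (x axis; grey, vehicle; red, forskolin), 1 array per group, with a line joining the arrays of 1 time. Blue lines mark the median (solid) and the 95th percentile (dashed) of the negative controls of each array; Diras2 with forskolin at 2 h, at 8.88, stands above the other points of its panel, and Rem1 and Rrad stay near or below the control median.

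Windows around an annotated start are shown for Diras2, Rasd1, Rem2 and Rnd3, which were at least 2-fold apart from vehicle at 2 h. For Diras2 and Rasd1 this start lies inside the annotated gene, so their windows may not be promoters. CREB, the transcription factor that cAMP activates through protein kinase A, binds the cAMP response element TGACGTCA or its core TGACG. Windows of 250 bases before to 50 after the annotated start were found for 8 of the 10 genes (RefSeq, build GRCr8), and both strands were searched; the windows of Gem and Rrad were not analysed here. The whole element was in 0 of the 8 windows and in 1.83% of all 33469 windows of that length. The core TGACG, which is part of the whole element, was in 3 of 8 (Rasd1, Diras1 and Rhob) and in 21.2% of all windows. In the windows below, TGACG and the TATA box letters TATAAA are in capitals where they occur; the windows lie at chr17:12909176-12909475, plus strand (Diras2), chr10:45267633-45267932, minus strand (Rasd1), chr15:31903722-31904021, plus strand (Rem2) and chr3:55998445-55998744, minus strand (Rnd3).
Diras2: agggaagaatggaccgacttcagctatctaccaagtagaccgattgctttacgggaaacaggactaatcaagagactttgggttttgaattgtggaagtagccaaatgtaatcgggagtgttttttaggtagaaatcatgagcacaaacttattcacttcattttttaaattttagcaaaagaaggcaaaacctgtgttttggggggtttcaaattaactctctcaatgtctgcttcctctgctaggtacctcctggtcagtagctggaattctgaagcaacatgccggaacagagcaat
Rasd1: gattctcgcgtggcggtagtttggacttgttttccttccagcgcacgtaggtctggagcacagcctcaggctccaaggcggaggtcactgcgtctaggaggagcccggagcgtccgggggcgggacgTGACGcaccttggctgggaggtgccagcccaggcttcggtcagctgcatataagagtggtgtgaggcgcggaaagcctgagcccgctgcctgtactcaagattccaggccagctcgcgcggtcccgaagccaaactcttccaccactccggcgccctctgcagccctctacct
Rem2: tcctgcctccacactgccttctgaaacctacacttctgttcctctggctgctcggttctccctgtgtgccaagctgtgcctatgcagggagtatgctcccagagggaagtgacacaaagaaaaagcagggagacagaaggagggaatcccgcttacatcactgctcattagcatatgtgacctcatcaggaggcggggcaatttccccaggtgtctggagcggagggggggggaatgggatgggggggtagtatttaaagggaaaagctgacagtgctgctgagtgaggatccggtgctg
Rnd3: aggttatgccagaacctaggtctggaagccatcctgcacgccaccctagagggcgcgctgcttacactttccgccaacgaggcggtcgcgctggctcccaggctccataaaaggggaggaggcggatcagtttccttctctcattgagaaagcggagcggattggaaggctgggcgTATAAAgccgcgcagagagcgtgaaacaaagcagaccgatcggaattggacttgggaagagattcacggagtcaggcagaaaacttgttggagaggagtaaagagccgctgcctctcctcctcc

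Rasd1, higher at 2 h, carried the core from 123 bases before its start. The windows of Diras2 and Rem2, also higher, held no TGACG on either strand. The start used for Diras2 lies 27202 bases inside the annotated gene and that of Rasd1 lies 7597 bases inside. The first start of these genes is therefore not covered, and the Diras2 window says nothing of it. For Rem1 the start used lies 54 bases from the annotated gene start. The counts over the 8 windows include these genes. Rnd3, the gene that was lower, had TATAAA from 74 bases before its start, letters found in 14.2% of all windows. Diras1 and Rhob also held TGACG, from 236 and 237 bases before their starts, but neither reached a 2-fold difference at either time. The stretch around the core, in capitals, is shown for each beside that of Rasd1; the windows they come from lie at chr7:9338410-9338709, plus strand (Diras1), and chr6:37085155-37085454, minus strand (Rhob).
Diras1: caggacctcacaTGACGggtcctgtcacc
Rhob: tgtcaatcaagcTGACGggaacccgcctt
Rasd1: gggggcgggacgTGACGcaccttggctgg

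Diras2 had the largest differences of the 10 genes at both times. Its signal was 5.68 with vehicle and 8.88 with forskolin at 2 h, and 5.41 with vehicle and 7.17 with forskolin at 16 h. Both forskolin arrays thus stood above both vehicle arrays, and both were above the 95th percentile of the controls, which neither vehicle array reached. The difference was 3.20 log2 units, or 9.20-fold, at 2 h, with rank 9 from the highest of 9323 genes. It was 1.75, or 3.37-fold, at 16 h, with rank 50. The 16 h difference was 1.45 log2 units smaller than that at 2 h (-1.45), while the vehicle arrays differed by -0.26, so the lower signal of the 16 h forskolin array (-1.71 against the 2 h one) exceeded the difference between the vehicle arrays. Because vehicle signals lay within the range of the controls, the folds are uncertain in size.

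Diras1, the closest relative of Diras2 among the 10, did not share this pattern. Its signals were 4.97 and 4.92 with vehicle and forskolin at 2 h and 4.77 and 5.29 at 16 h, below the 95th percentile of the controls on every array. The difference was -0.05 at 2 h, a value whose sign turned to 0.06 after cyclic loess and 0.07 after a further quantile normalization, and 0.53 at 16 h. At 2 h the paralogs therefore lay on opposite sides of the 2-fold line, which was not tested for lack of replicates.

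Of the RGK genes, which encode inhibitors of calcium channels, Gem and Rem2 were at least 2-fold higher at 2 h. Gem had signals of 5.64 with vehicle and 7.68 with forskolin at 2 h, and of 6.06 and 6.68 at 16 h. The forskolin array was the higher one at both times, and both forskolin arrays passed the 95th percentile of the controls. The difference was 2.05 log2 units (4.13-fold, rank 42 from the highest) at 2 h and 0.61 (1.53-fold, rank 653) at 16 h. The vehicle arrays differed by 0.43, with the later one higher, and the forskolin arrays by -1.01. Rem2 had signals of 6.43 and 7.43 at 2 h and of 6.13 and 6.58 at 16 h, again with forskolin higher at each time. Its difference of 1.00 at 2 h (2.00-fold, rank 195) stood just at the 2-fold line, which 195 genes reached, and after cyclic loess it was 1.15. At 16 h it was 0.45, or 1.36-fold.

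The other RGK genes had signals in the lower part of the control range. Rem1 lay between 3.15 and 3.43 on the 4 arrays, close to the median of the controls. Rrad, named for its association with diabetes in human muscle, lay between 1.82 and 2.15, under that median on every array. Differences of -0.28 and 0.08 for Rem1 and of 0.17 and -0.26 for Rrad at 2 h and 16 h cannot be read as responses at this signal.

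Rasd1, which acts on G protein signalling, was the third of the higher genes by size at 2 h. Its signals were 6.17 with vehicle and 7.49 with forskolin at 2 h, and 6.28 and 6.63 at 16 h. The 2 h forskolin array stood above the other 3, which lay between 6.17 and 6.63. The difference was 1.32 log2 units (2.49-fold, rank 123) at 2 h and 0.35 (1.28-fold, rank 1636) at 16 h, and the vehicle arrays differed by 0.11. Its paralog Rasd2 had signals of 4.52 and 4.77 at 2 h and of 5.04 and 5.17 at 16 h, below the 95th percentile of the controls throughout. For Rasd2 the vehicle arrays, 0.51 apart, differed by more than vehicle and forskolin did at either time (0.25 and 0.14).

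Rnd3, the antagonist of RhoA, was the member with lower signal under forskolin at both times. It had 6.20 with vehicle and 4.95 with forskolin at 2 h, and 6.05 with vehicle and 5.15 with forskolin at 16 h. Both forskolin arrays stood below both vehicle arrays, and the vehicle arrays were only 0.15 apart (-0.15). The difference was -1.26 (2.39-fold lower, rank 49 from the lowest) at 2 h and -0.91 (1.87-fold lower, rank 239) at 16 h. All 4 signals lay below the 95th percentile of the controls and above their 75th percentile, which was 4.37 to 4.57, so the size of this difference is uncertain too. Rhob had signals of 6.46 and 6.08 at 2 h and of 6.21 and 6.57 at 16 h. Its differences of -0.38 and 0.36 had opposite signs, and neither reached 1.5-fold.

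**Figure D2:**
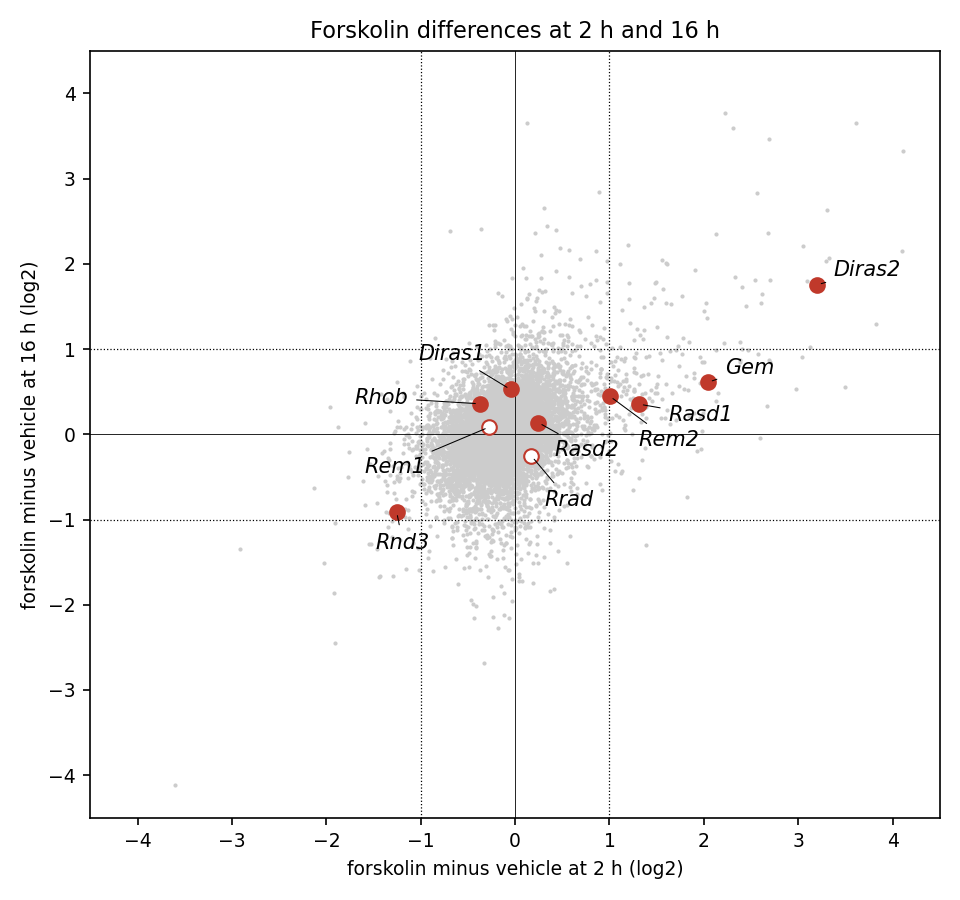
Forskolin minus vehicle (log2) at 2 h (x axis) against that at 16 h (y axis), for the 9323 compared genes (grey) and the 10 small GTPase genes (red; open circles, below the filter). Dotted lines mark 2-fold; Diras2 is beyond them at both times, Gem, Rasd1, Rem2 and Rnd3 at 2 h alone.

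Between the times, the genes higher at 2 h were closer to vehicle at 16 h. The 16 h difference minus the 2 h difference was -1.45 for Diras2, -1.44 for Gem, -0.96 for Rasd1 and -0.55 for Rem2. For Rnd3 it was 0.35, also towards 0. These values come from the differences used to choose the genes and were not tested. Without forskolin, the 16 h and 2 h vehicle arrays differed by -0.30 to 0.51 for the 10 genes, and 0 of 10 were 2-fold apart, beside 0.0858% of compared genes past that line upwards and 0.0322% downwards in the later array. The SD of that vehicle difference over compared genes was 0.252 log2 units, which covers time in culture as well as array error.

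The genes with the pattern most like that of Diras2 over the 4 arrays, by the Euclidean distance between log2 profiles centred on each gene's mean, were Nr4a2, Sik1, Tac1, Nedd9 and Tiparp. Distances were 0.14, 0.26, 0.54, 0.58 and 0.64 log2 units, against a median of 2.84 over 9322 genes. Diras2 was chosen with its high forskolin difference known, and the distance uses the same 4 signals. A gene with flat signals therefore lies far from it, so the median follows in large part from the size of that difference. The likeness was not tested. Nr4a2, an orphan nuclear receptor gene, had signals of 5.30, 8.40, 4.85 and 6.65 in the order vehicle and forskolin at 2 h, vehicle and forskolin at 16 h. Sik1, a salt-inducible kinase gene, had 6.59, 9.88, 6.07 and 8.11. Their forskolin differences were 3.10 and 1.80 for Nr4a2 and 3.29 and 2.04 for Sik1, beside 3.20 and 1.75 for Diras2. These values lie close because the genes were picked by their distance over the same signals. Tac1 encodes the precursor of substance P, Nedd9 a scaffold protein of focal adhesions and Tiparp a mono-ADP-ribosyltransferase.

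**Figure D3:**
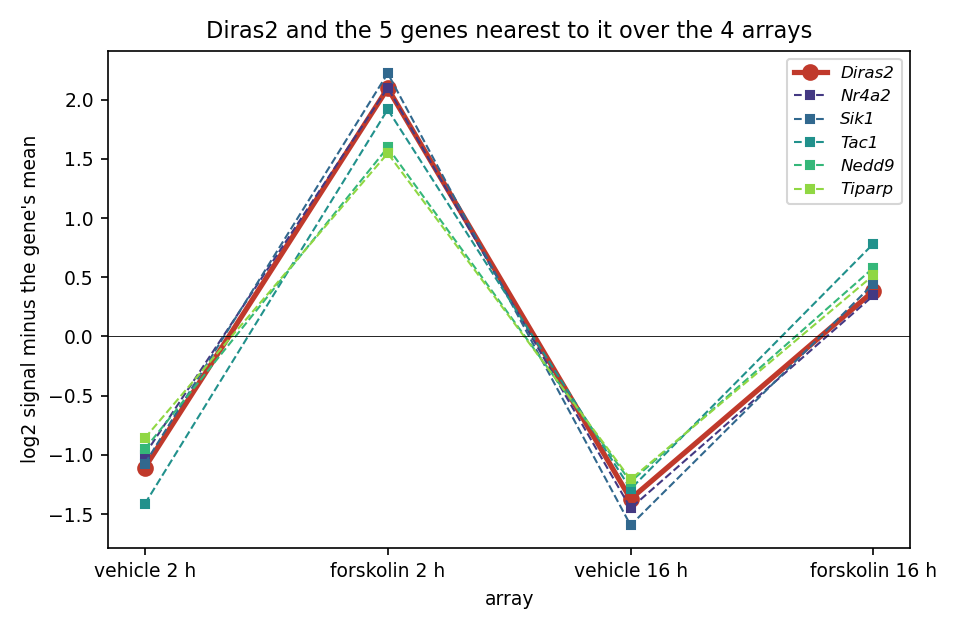
Log2 signal minus the gene's own mean over the 4 arrays (y axis) on each array (x axis) for Diras2 (red) and the 5 genes nearest to it. All 6 profiles are highest with forskolin at 2 h and second highest with forskolin at 16 h. The 5 genes were chosen by their likeness to Diras2 over these same arrays.

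Of 24 other Ras-branch genes measured, such as Rap1a, 17 were compared. Signals of 15 of the 24 were above the 95th percentile of the controls on no array. Among the 17, 1 was at least 2-fold higher at 2 h and 0 were lower, beside 2.09% and 1.41% of all compared genes. At 16 h 0 passed in either direction, beside 2.33% and 2.02%. At such shares these counts are not read as a result about the Ras branch. The higher gene was Rasl11b, with signals of 3.68 and 4.84 at 2 h and of 4.18 and 5.04 at 16 h (differences of 1.16 and 0.87), near background. The median difference of the 17 was -0.03 at 2 h, or 0.12 after cyclic loess and 0.10 after a further quantile normalization, and 0.08 at 16 h.

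Among partners of these proteins, the calcium channel subunits are the targets of RGK proteins. Of 16 subunit genes measured, 8 were compared. Signals of 12 of the 16 were above the 95th percentile of the controls on no array, and those of 2 on all arrays. The median difference of the 8 was -0.27 at 2 h and -0.54 at 16 h, beside -0.10 and 0.02 over all compared genes. After cyclic loess it was -0.16 and -0.55, beside 0.00 and 0.00. Below 0 lay 6 and 5 of the 8. Above 0 lay 2 and 3 of them, beside 3401 and 4920 of the 9323 compared genes. At 2 h 0 of the 8 were 2-fold apart, beside 2.09% of all compared genes higher and 1.41% lower. At 16 h 1 was, beside 2.33% higher and 2.02% lower. Cacna1a, which encodes the pore of P/Q-type channels, was that gene, lower at 16 h: it had 7.86 and 7.45 at 2 h and 6.90 and 5.62 at 16 h. Its vehicle signal also differed between the times, by -0.96. Between the vehicle arrays, all 8 subunit genes had the lower signal at 16 h, with a median difference of -0.38. Over all compared genes that median was -0.08, and 3457 of 9323 had a vehicle difference above 0. The beta subunit Cacnb3, which RGK proteins bind, had differences of -0.42 and -0.63, and Cacnb2 of -0.19 and -0.52. Cacna1b, the pore of N-type channels, had 0.01 and 0.82, the latter 1.76-fold higher, Cacna1h -0.61 and 0.08, and Cacna1d 0.05 and 0.00. Cacna1b (signals of 4.53 to 5.35), Cacnb2 (4.65 to 5.39) and Cacna1d (6.07 to 6.41) were below the 95th percentile of the controls on every array. The sizes of their differences are therefore uncertain.

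Calmodulin and 14-3-3 genes, whose products bind RGK proteins, were all compared, and 0 of 10 were 2-fold apart at either time. Their median difference was -0.12 at 2 h. Of the genes of prenylation and CAAX processing, which attach lipid anchors to many small GTPases, 0 of 5 compared were 2-fold apart at either time. The count was 0 of 8 for Rasd partners such as Gnai2 and 0 of 2 for GDP dissociation inhibitors and SmgGDS. Over all compared genes, 2.09% were at least 2-fold higher and 1.41% lower at 2 h, and 2.33% and 2.02% at 16 h. At such shares a count of 0 in lists this small is not read as a result.

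**Figure D4:**
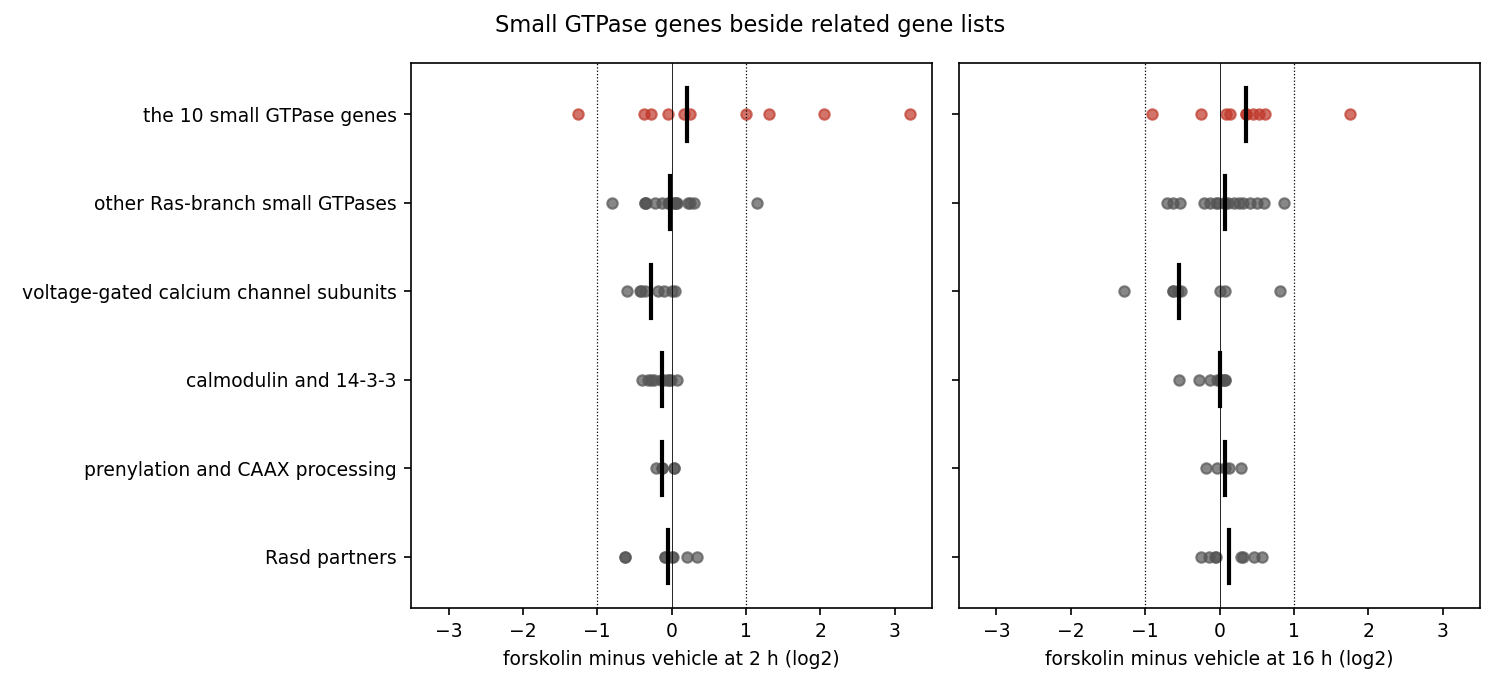
Forskolin minus vehicle (log2, x axis) at 2 h (left) and 16 h (right) for the 10 small GTPase genes (red) and for the compared genes of 5 related lists (grey), 1 point per gene; bars mark medians and dotted lines 2-fold. The 10 genes spread from -1.26 to 3.20 at 2 h and from -0.91 to 1.75 at 16 h, and the channel subunits have a median of -0.54 at 16 h.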

How the data were processed

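The log2 signals are gene-level RMA values from the authors' deposited tables of each time point. They were made with Affymetrix Expression Console 1.1.1 per the submitters' processing notes. RMA subtracts background, gives all arrays 1 distribution of probe intensities and then combines the probes of a set. Signals of probe sets can still differ in distribution, and their medians were 3.93 to 4.00 on the 4 arrays. A deposited ratio column divides log2 signals and was not used. Symbols were updated through RefSeq names (assembly GRCr8); of 20411 probe sets with 1 symbol, 14570 matched by accession, 2834 by symbol, 1127 by synonym, and 1880 kept their symbol. The probe set with the highest mean stood for a gene, and each of the 10 genes had 1. Genes were compared if their highest signal reached the median of that quantity. With 1 array per group, genes were counted by size (at least 2-fold) and no test was run; the counting was tested on simulated data. The number of arrays limits the precision. The genes, lists and the rule for genes named (all 10, list genes at least 2-fold apart, at most 4 a list, and the 5 nearest to Diras2) were chosen with earlier results of these data known. Other genes named as examples were chosen after their values were seen. Alternatives used limma 3.58.1 in R 4.3.3; Python 3.11.15 did the rest. Some fixed gene lists are not reported here.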

Additional observations from a re-analysis of the deposited data

Results flagged for a closer look

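For Rhob, Diras1, Rem1 and Rrad, the forskolin differences at 2 h and 16 h had opposite signs. The 16 h difference minus the 2 h difference was 0.73 log2 units for Rhob, 0.57 for Diras1, 0.36 for Rem1 and -0.43 for Rrad. With 1 array per group this contrast between the times was not tested. The 2 h difference of Diras1 changed sign with the scaling, and Rem1 and Rrad lay below the expression filter.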

How the results depend on the processing

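The counts of the 10 genes at least 2-fold higher or lower were recomputed under 7 settings, and 25 of 28 recomputed counts were unchanged. Dropping the filter, averaging the probe sets of a gene and using a second copy of the deposited signals could not change them. The usual filter was not applied to the 10 genes in these counts, each had 1 probe set, and the copies hold the same values to rounding. At a 1.5-fold threshold, 2 genes were higher (Diras2 and Gem) and 1 was lower (Rnd3) at 16 h. A stricter filter, which keeps the upper 33.3% of genes, left 5 of the 10, so 0 were lower at 2 h and the median 2 h difference was 1.32. A further quantile normalization gives values for the 8 genes above the filter, with a median of 0.73; the same 8 have 0.62 as deposited and all 10 have 0.21. Over all compared genes, 1251 were at least 1.5-fold apart at 2 h and 1348 at 16 h, and 216 were at least 2-fold apart at 2 h under the stricter filter. Cyclic loess moved the 2 h median of all compared genes from -0.10 to 0.00, and the split of genes at least 2-fold higher and lower from 195 and 131 to 242 and 81; a further quantile normalization gave 223 and 88. Single values of the 10 genes spanned at most 0.151 log2 units. Of 76 recomputed values, 74 kept their sign, the other 2 being Diras1 at 2 h. The 76 include values from averaged probe sets and from the second copy of the signals, whose sign could not change. Only cyclic loess and the further quantile normalization could move a single value beyond rounding, the latter for the 8 genes above the filter. No paired analysis was possible because the labels give no replicate numbers that groups share; an additive fit of treatment and time would use the times as replicates and was not run. Vehicle signals of all 10 genes lay below the 95th percentile of the negative controls, which leaves the size of every fold uncertain.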
